A study of Mus musculus with 9 samples.

Results

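The hypoxia-inducible factor (HIF) pathway was followed in sorted proximal tubular cells through 10 genes: the alpha subunits Hif1a and Epas1, the regulators Vhl, Egln1 and Egln3, and the hypoxia-responsive genes Vegfa, Adm, Bnip3, Ankrd37 and Ndrg1. They were picked by gene symbol as a pathway, with earlier results of these data known, from a table of 24421 genes. All 10 were among the 15583 genes expressed highly enough to be tested. RNA came from 9 mice, 3 in each of 3 groups, and each mouse gave 1 library. The *db/db* mouse is homozygous for the Lepr db mutation of the leptin receptor and develops type 2 diabetes, and *db/db* mice drank vehicle for 8 weeks. *db/db*-dapa mice carry the same mutation and received 1.5 mg/kg/day of dapagliflozin, an inhibitor of the glucose transporter SGLT2, in their drinking water for 8 weeks. *db/m* mice are heterozygous and non-diabetic and received no dapagliflozin, and the study does not say whether they drank vehicle. All 9 mice are labelled C57BL/6, and by the study's methods all carried SLC34a1GCE, a CreERT2 cassette in the Slc34a1 locus, together with the R26tdTomato reporter, and were injected with tamoxifen at 8 weeks of age. The red cells sorted from the cortex are therefore those in which Cre from this proximal tubular locus was active, whereas the labels give the tissue only as kidney. The study also stained kidneys with pimonidazole, a probe retained in poorly oxygenated cells. That staining was not analysed here.

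Cells sense oxygen largely through the stability of HIF alpha proteins. When oxygen is sufficient, prolyl hydroxylases, the products of Egln1 and Egln3 among others, mark HIF-1alpha and HIF-2alpha for the ubiquitin ligase that contains VHL, and the proteins are degraded. When oxygen is short, the alpha subunits persist, pair with ARNT and activate genes of glycolysis, vessel growth, mitophagy and pH control. In the kidney, tubular cells mainly use HIF-1alpha, while HIF-2alpha is known from endothelial and interstitial cells. Since this control acts on protein, the RNA of Hif1a or Epas1 does not report the activity of the factor, and target RNA is its usual readout.

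The windows of 250 bases upstream of annotated starts show how differently these genes are provided with the core letters of the HIF response element, which are ACGTG or GCGTG on either strand. RefSeq windows on GRCm38.p6 were matched for 8 of the 10 genes, and Epas1 and Ndrg1 had none. Of all 32851 mouse windows, 38.6% held at least 1 match to either motif, 16.6% to ACGTG and 28.2% to GCGTG. The windows of the hydroxylase genes Egln3 and Egln1 and of the genes Bnip3 and Ankrd37 are printed because they range from 1 match to 5. They are written 5′ to 3′ along the gene's strand, which is the minus strand for all 4, and capitals mark the matches. CACGTG holds ACGTG on both strands and CACGCGTG holds GCGTG on both strands, so such a run counts for each strand. The window of Egln3 (chr12:54203875-54204124) held 1 match, to ACGTG. The window of Egln1 (chr8:124949255-124949504) held 1 match to each motif. The window of Bnip3 (chr7:138909507-138909756) held 2 matches to ACGTG and 3 to GCGTG, a total of 5 or more that was found in 1.0% of all windows. Both motifs contain CG, and this window held 24 CG pairs against a median of 6 over all windows. The share of 1.0% was not matched for CG content. The window of Ankrd37 (chr8:45999851-46000100) held 2 matches to each motif. It precedes a RefSeq start that lies inside the gene span of GENCODE, so this window is within that span.
Egln3: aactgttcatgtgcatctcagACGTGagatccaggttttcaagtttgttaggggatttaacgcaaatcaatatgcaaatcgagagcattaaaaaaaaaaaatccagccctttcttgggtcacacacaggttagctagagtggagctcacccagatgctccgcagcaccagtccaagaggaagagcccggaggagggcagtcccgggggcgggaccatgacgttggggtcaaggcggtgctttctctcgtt
Egln1: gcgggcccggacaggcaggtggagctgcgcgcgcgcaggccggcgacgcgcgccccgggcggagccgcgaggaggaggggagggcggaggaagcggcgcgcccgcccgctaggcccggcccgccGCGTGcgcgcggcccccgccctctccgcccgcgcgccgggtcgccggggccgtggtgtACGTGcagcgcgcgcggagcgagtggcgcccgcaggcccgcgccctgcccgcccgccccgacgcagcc
Bnip3: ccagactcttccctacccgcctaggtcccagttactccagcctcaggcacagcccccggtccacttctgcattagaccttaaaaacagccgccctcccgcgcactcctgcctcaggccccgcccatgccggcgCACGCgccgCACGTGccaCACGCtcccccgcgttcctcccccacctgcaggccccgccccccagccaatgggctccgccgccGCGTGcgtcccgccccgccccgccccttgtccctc
Ankrd37: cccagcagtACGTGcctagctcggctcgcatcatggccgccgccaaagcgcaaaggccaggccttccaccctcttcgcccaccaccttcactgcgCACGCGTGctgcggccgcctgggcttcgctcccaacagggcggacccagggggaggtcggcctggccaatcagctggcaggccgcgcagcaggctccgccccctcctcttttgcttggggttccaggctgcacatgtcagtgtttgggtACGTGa
Among the other genes, the window of Hif1a, also within its gene span, held 3 matches, that of Adm 2 and that of Vhl 0. Vegfa had 0 in the window of its upstream start and 2 in that of an internal start. These matches describe letters, and nothing follows from them about binding.

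Levels are given in CPM, which relates a count to the TMM-scaled size of its library, and errors are SD over the 3 mice of a group. Total counts ranged from 4817721 to 6571572 in *db/m*, from 2733349 to 7635669 in *db/db* and from 6981225 to 9033123 in *db/db*-dapa mice. The smallest library was that of *db/db* replicate 1, in which 3 counts equal 1.02 CPM. The summed level of 12 proximal tubule markers was 48424 to 58705 CPM in *db/m*, 22873 to 31747 in *db/db* and 30943 to 36551 in *db/db*-dapa mice. Kap, an androgen-dependent gene of the tubule, fell in *db/db* against *db/m* mice (log2 fold change -3.73, adjusted p = 0.00117 by edgeR), and without it the other 11 markers summed to 22287 to 24442, 21376 to 28601 and 25151 to 30646 CPM. The libraries thus carried the RNA of the sorted cell type. Markers of other cell types were far lower and uneven between mice of 1 group, and no endothelial, podocyte, thick ascending limb or collecting duct marker was at 0 in any mouse (the plot of summed markers by mouse). Endothelial markers, which include the HIF targets Kdr and Flt1, summed to 85.8 to 211 CPM in *db/m*, 102 to 309 in *db/db* and 68.4 to 321 in *db/db*-dapa mice. All 10 had a positive log2 fold change in *db/db* against *db/m* mice (median 0.70). Relative to *db/db*, treated mice had a negative one for all 10 (median -0.43) and for all 7 macrophage markers (median -0.58). All 7 collecting duct markers (median -0.75) and all 4 distal convoluted tubule markers (-0.72) were also negative there, whereas all 6 podocyte markers were positive (0.59). Relative to *db/m*, treated mice again had negative values for all 7 collecting duct (median -1.26) and all 4 distal convoluted tubule markers (-0.59). None of the markers in these lists was called by edgeR. Podocyte markers summed to 267 CPM and endothelial markers to 321 CPM in *db/db*-dapa replicate 1, against at most 91.8 and 309 CPM in the other 8 mice. Thick ascending limb markers summed to 1456 to 2263 CPM in *db/m*, 720 to 1815 in *db/db* and 956 to 1121 in *db/db*-dapa mice, and collecting duct markers to 262 to 860, 275 to 540 and 175 to 290 CPM. A list of 10 immediate-early genes, such as Fos and Jun, summed to 3331 to 4029, 2408 to 7641 and 3278 to 5874 CPM. The cortex was digested with enzymes before the sort, and the study's authors name this procedure as a possible influence on expression that could hide small differences. Its part in the RNA levels below was not tested. The part of these lists in the results below was not tested, except where a value without a mouse is given. Whether a lower level reflects fewer cells of a type or less RNA per cell cannot be told apart in such bulk samples.

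**Figure D1:**
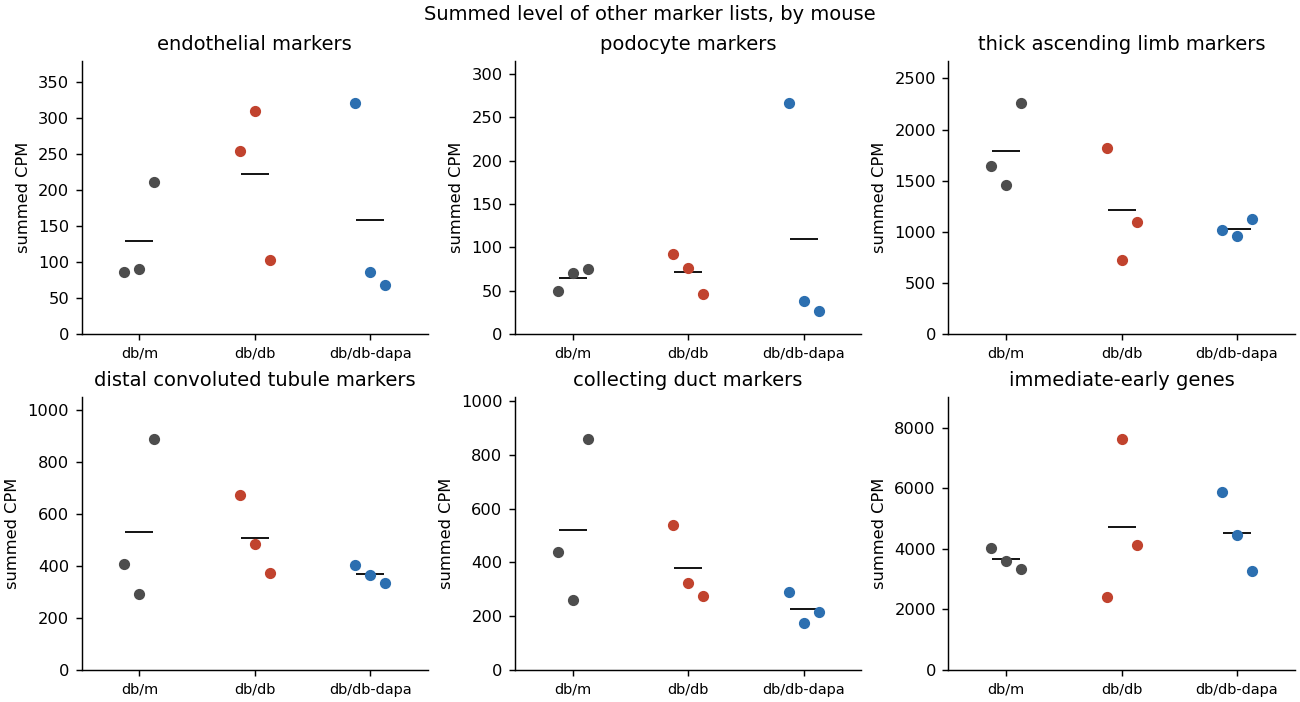
Summed CPM (y axis) of 6 lists, markers of other cell types and immediate-early genes, in the mice of each group (x axis). Points are mice, in the order of their replicate numbers, and bars are group means. *db/db*-dapa replicate 1 had the highest endothelial (321 CPM) and podocyte (267 CPM) sums, whereas the collecting duct sum was highest in *db/m* replicate 3 (860 CPM).

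Compared per kilobase of exon, the genes spanned a wide range in *db/m* mice. Ndrg1 was the most abundant at 343 ± 130 CPM per kb (SD, n = 3), followed by Bnip3 at 91.7 ± 4.09, Vegfa at 76.0 ± 9.06 and Egln1 at 19.3 ± 1.76. Adm, Epas1, Vhl and Hif1a lay close together, between 9.52 and 12.4 CPM per kb, and each overlapped its neighbour in this order. Egln3 at 2.92 ± 1.22 and Ankrd37 at 2.56 ± 0.559 CPM per kb were the lowest and overlapped each other. In *db/db* and *db/db*-dapa mice Ndrg1, Bnip3, Vegfa and Egln1 kept the first 4 places, with Bnip3 and Vegfa overlapping, and Egln3, at 9.51 ± 3.30 and 10.8 ± 2.47 CPM per kb, stood above Vhl, which it overlapped in *db/db* but not in *db/db*-dapa mice. The ratio of the highest to the lowest mouse was 6.72 for Egln3 and 3.85 for Ndrg1, against 1.36 for Bnip3 and 1.39 for Egln1.

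**Figure D2:**
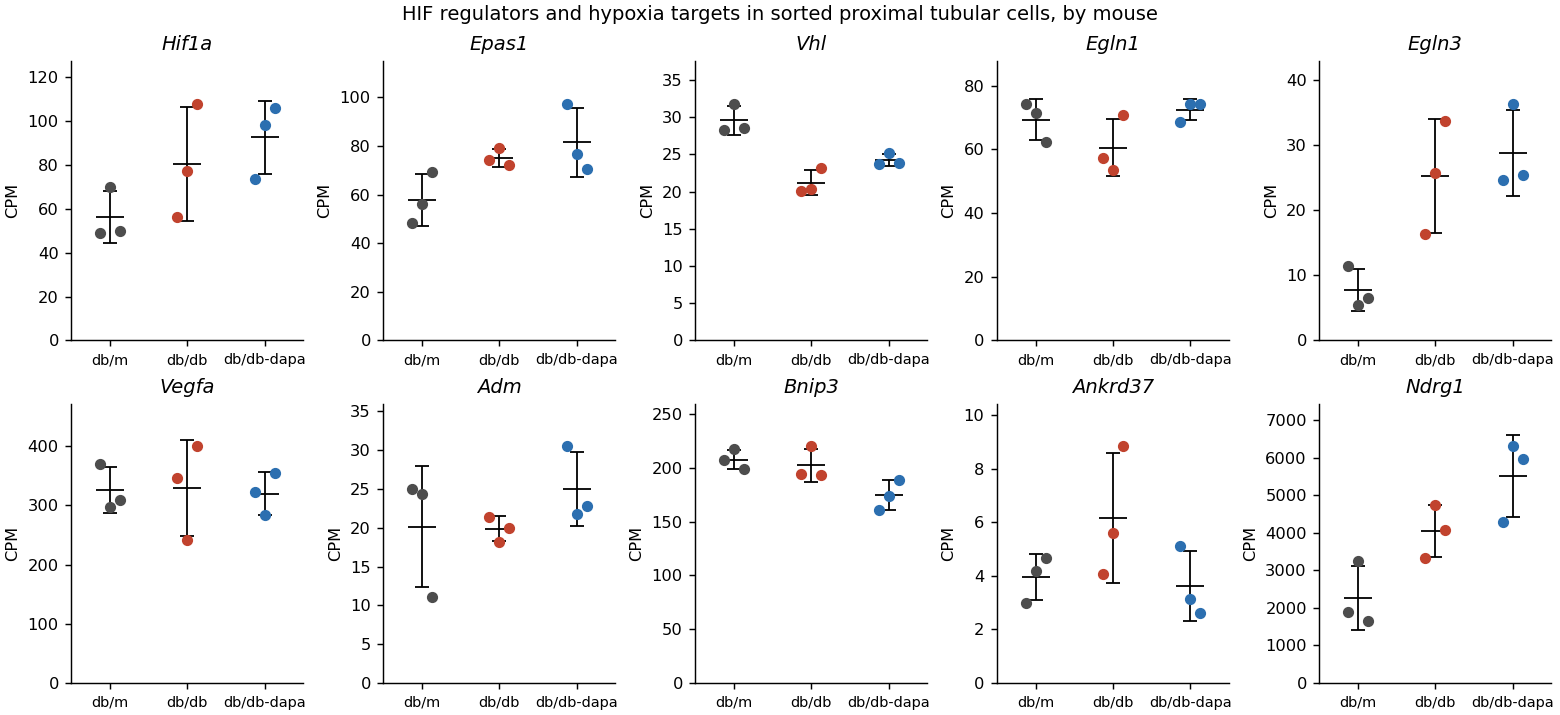
CPM (y axis, from 0) of the 10 genes in the 3 mice of each group (x axis); points are mice, in the order of their replicate numbers, and bars are means ± SD (n = 3). All 6 diabetic mice lay above all *db/m* mice for Egln3 (16.3 to 36.4 against 5.41 to 11.5 CPM) and Ndrg1 (3342 to 6307 against 1639 to 3242 CPM), whereas the groups overlapped for Vegfa.

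The diabetes contrast sets *db/db* against *db/m* mice, the drug contrast *db/db*-dapa against *db/db* mice, and the combined contrast *db/db*-dapa against *db/m* mice. Lepr genotype and diabetes differ together between *db/m* mice and the other groups, so the names do not tell these apart. The contrasts share groups of mice, so none is independent of the others. The thresholds follow the study's methods. A gene was called when its log2 fold change exceeded 1 in absolute size with an adjusted p below 0.1. All adjusted p-values below come from edgeR's quasi-likelihood test over the 15583 genes with Benjamini-Hochberg adjustment. In the diabetes contrast 1 of the 10 genes, Egln3, was called and was higher in *db/db*, where 1.24% of all tested genes were called (0.545% higher and 0.699% lower). In the combined contrast 2 of 10 were called, Egln3 and Ndrg1, both higher in *db/db*-dapa, where 1.05% of all genes were called (0.578% higher and 0.475% lower). In the drug contrast 0 of 10 were called by edgeR and by DESeq2, and 0 had an unadjusted p under 0.05. In that comparison 0.0% of all genes were called by edgeR and 0.0834% by DESeq2 (13 genes), and 5.19% had an unadjusted p under 0.05 by edgeR. The study, which names edgeR in its methods, reported 13 genes at these thresholds in the same comparison. Whether these are the genes called by DESeq2 here was not examined. limma's voom with quality weights called 2.88% of all genes there, and 0 of the 10. Without *db/db* replicate 3, 272 genes were called there, but again 0 of the 10. The median log2 fold change of the 10 genes was 0.20, 0.18 and 0.18 in the diabetes contrast, the drug contrast and the combined contrast, beside 0.020, -0.009 and -0.022 over all tested genes.

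**Figure D3:**
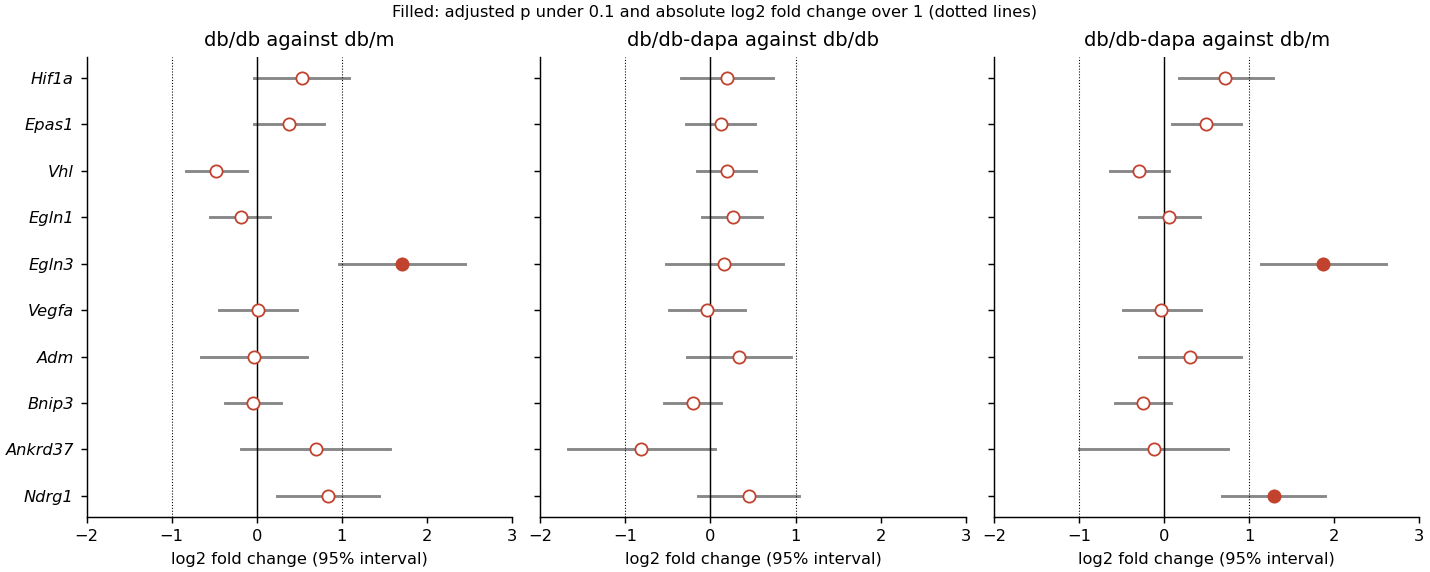
Log2 fold change (x axis, point) with its 95% interval (line) for the 10 genes (y axis) in the 3 comparisons, from edgeR's quasi-likelihood test; dotted lines mark an absolute log2 fold change of 1, and filled points are called genes. Egln3 is called in both comparisons with *db/m* (1.71 and 1.87), Ndrg1 only in the combined contrast (1.29), and every interval of the drug contrast includes 0.

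Groups were fully separated for 4 of the 10 genes in the diabetes contrast, against 16.4% of all tested genes (8.28% higher and 8.13% lower). Egln3, Ndrg1 and Epas1 were the higher ones and Vhl the lower one. In the drug contrast this held for 3 of 10, against 10.2% of all genes (4.9% higher and 5.29% lower), with Vhl and Adm higher and Bnip3 lower. In the combined contrast it held for 6 of 10, against 28.1% of all genes (14.4% higher and 13.7% lower), with Hif1a, Epas1, Egln3 and Ndrg1 higher and Vhl and Bnip3 lower. An exact two-sided permutation test of 3 mice against 3 cannot give a p under 0.1.

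Egln3, which encodes the prolyl hydroxylase PHD3 and is itself induced by HIF, had the largest log2 fold change of the 10 in the diabetes and combined contrasts. On GRCm38 the gene spans 54178981 to 54203860 of chromosome 12, on the minus strand. Its levels were 11.5, 5.41 and 6.44 CPM in *db/m* mice, 16.3, 25.8 and 33.8 CPM in *db/db* mice and 24.6, 36.4 and 25.5 CPM in *db/db*-dapa mice. Every diabetic mouse, treated or not, was above every *db/m* mouse, and the ranges of treated and untreated mice overlapped. Egln3 rose 3.27-fold in *db/db* over *db/m* mice (log2 1.71, standard error 0.34, adjusted p = 0.0427). It rose 3.66-fold in *db/db*-dapa over *db/m* mice (log2 1.87, standard error 0.33, adjusted p = 0.0414). In the drug contrast its log2 fold change was 0.16, with a 95% interval from -0.52 to 0.85 (adjusted p = 0.929). The counts behind these values were 29 to 73 in *db/m* and 48 to 277 in diabetic mice. Left out in turn, single mice gave log2 fold changes from 1.43 to 2.12 for *db/db* and from 1.66 to 2.28 for *db/db*-dapa over *db/m*. The first call was lost without *db/db* replicate 2 (adjusted p = 0.110), *db/m* replicate 2 (0.147) or *db/m* replicate 3 (0.147), and the second without *db/m* replicate 2 (0.119), *db/m* replicate 3 (0.187), *db/db*-dapa replicate 2 (0.213) or *db/db*-dapa replicate 3 (0.112). Over all alternatives the adjusted p ranged from 0.000428 to 0.147 in the diabetes contrast and from 6.77e-05 to 0.213 in the combined contrast.

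Egln1 encodes PHD2, the main oxygen sensor of most cells, and lies on chromosome 8 from 124908587 to 124949324. Its levels were 74.3, 71.4 and 62.2 CPM in *db/m*, 57.1, 53.6 and 70.6 CPM in *db/db* and 68.6, 74.3 and 74.2 CPM in *db/db*-dapa mice. In this gene 2 *db/db* mice were the lowest of the 9 and the third lay within the other groups. For Egln1 the log2 fold change was -0.19 in the diabetes contrast (standard error 0.16, adjusted p = 0.638), 0.26 in the drug contrast (0.16, adjusted p = 0.854) and 0.06 in the combined contrast (0.16, adjusted p = 0.861). In the diabetes contrast the 95% intervals of the 2 hydroxylase genes, 0.97 to 2.45 for Egln3 and -0.55 to 0.16 for Egln1, did not overlap.

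Vhl encodes the subunit of the ubiquitin ligase that recognises hydroxylated HIF alpha, and lies on chromosome 6 from 113623959 to 113631633. It was at 28.3, 31.8 and 28.6 CPM in *db/m*, at 20.1, 20.4 and 23.1 CPM in *db/db* and at 23.7, 25.2 and 23.8 CPM in *db/db*-dapa mice. The 3 groups did not overlap, and the treated mice lay between the other 2 groups. The log2 fold change of -0.48 in the diabetes contrast (95% interval -0.83 to -0.12, adjusted p = 0.228) did not pass the test, nor did that of 0.19 in the drug contrast (-0.16 to 0.54, adjusted p = 0.854). A processed pseudogene, Vhl-ps1 on chromosome 17, could share reads with this gene and is not among the listed genes.

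Hif1a, on chromosome 12 from 73901375 to 73947530, encodes HIF-1alpha. It was found at 48.8, 69.8 and 49.7 CPM in *db/m*, at 56.4, 77.4 and 108 CPM in *db/db* and at 73.7, 98.1 and 106 CPM in *db/db*-dapa mice. All treated mice were above all *db/m* mice, and *db/db* mice spanned nearly the whole range. The log2 fold change was 0.53 in the diabetes contrast (standard error 0.25, adjusted p = 0.387), 0.20 in the drug contrast (0.25, adjusted p = 0.892) and 0.72 in the combined contrast (0.25, adjusted p = 0.206). The highest *db/db* value was that of replicate 3, and without it the first difference was 0.25. Exons of Gm15283, which is antisense, and Gm49321 overlap 330 and 148 bases of this gene.

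Epas1, on chromosome 17 from 86753700 to 86833410, encodes HIF-2alpha. Its levels were 48.3, 56.0 and 69.3 CPM in *db/m*, 74.1, 79.0 and 72.0 CPM in *db/db* and 97.4, 76.5 and 70.5 CPM in *db/db*-dapa mice. All 6 diabetic mice lay above the *db/m* mice, by margins of a few CPM in some of them. The log2 fold change was 0.38 in the diabetes contrast (standard error 0.19, adjusted p = 0.406) and 0.49 in the combined contrast (0.19, adjusted p = 0.223), so neither passed the test. In the drug contrast it was 0.12 (95% interval -0.29 to 0.52). The highest value came from *db/db*-dapa replicate 1, the mouse with the highest endothelial and podocyte sums. Without that mouse the difference from *db/m* was 0.35 and that from *db/db* was -0.02.

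Ndrg1, which encodes a stress-responsive cytoplasmic protein induced by hypoxia in many cells, was the most abundant of the 10. It spans 66929318 to 66969640 of chromosome 15. The mice had 1903, 3242 and 1639 CPM in *db/m*, 3342, 4736 and 4069 CPM in *db/db* and 4280, 6307 and 5956 CPM in *db/db*-dapa mice. Every diabetic mouse was above every *db/m* mouse, although *db/m* replicate 2 (3242) came close to the lowest *db/db* mouse (3342). Ndrg1 rose 2.44-fold in *db/db*-dapa over *db/m* mice (log2 1.29, standard error 0.28, adjusted p = 0.0762). In the diabetes contrast it was 1.79-fold higher without passing the test (log2 0.84, standard error 0.27, adjusted p = 0.214), and in the drug contrast the log2 fold change was 0.45, with a 95% interval from -0.15 to 1.04. The call was lost without *db/m* replicate 1 (adjusted p = 0.306), *db/m* replicate 3 (0.263), *db/db*-dapa replicate 2 (0.365) or *db/db*-dapa replicate 3 (0.263), whereas without *db/m* replicate 2 the difference in the diabetes contrast was called (log2 1.19, adjusted p = 0.0964). Over all alternatives, the adjusted p ranged from 0.000976 to 0.365 for the combined contrast. Exons of the opposite-strand genes Gm17035 and Gm2895 overlap 419 and 137 of its bases, and whether the counting used strand is not given.

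The secreted products gave no call. Vegfa, on chromosome 17 from 46016993 to 46032369, encodes the vascular endothelial growth factor that tubules and podocytes supply to kidney capillaries. It was at 370, 298 and 309 CPM in *db/m*, at 347, 241 and 400 CPM in *db/db* and at 322, 283 and 355 CPM in *db/db*-dapa mice. The 3 groups overlapped fully, and both the highest and the lowest mouse were *db/db*. For Vegfa the log2 fold change was 0.02 in the diabetes contrast (95% interval -0.44 to 0.47), -0.04 in the drug contrast (-0.49 to 0.41) and -0.03 in the combined contrast (-0.48 to 0.43), so no interval reached the limit of 1 that a call needs.

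Adm, on chromosome 7 from 110627661 to 110629820, encodes the vasodilator peptide adrenomedullin. It was at 25.0, 24.3 and 11.1 CPM in *db/m*, at 21.4, 18.2 and 20.0 CPM in *db/db* and at 30.5, 21.8 and 22.8 CPM in *db/db*-dapa mice. The treated mice were all above the *db/db* mice, by as little as 21.8 against 21.4 CPM, and *db/m* replicate 3 was the lowest of all. The log2 fold change was 0.34 in the drug contrast (95% interval -0.28 to 0.95, adjusted p = 0.854) and -0.03 in the diabetes contrast (-0.65 to 0.59). As with Epas1, the highest value was that of *db/db*-dapa replicate 1, and without it the difference from *db/db* mice was 0.18.

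Bnip3, on chromosome 7 from 138890836 to 138909519, encodes a mitophagy receptor of the outer mitochondrial membrane. It was found at 207, 217 and 199 CPM in *db/m*, at 194, 220 and 193 CPM in *db/db* and at 161, 174 and 189 CPM in *db/db*-dapa mice. The treated mice were the lowest 3 of the 9. The log2 fold change was -0.21 in the drug contrast (standard error 0.15, adjusted p = 0.854) and -0.25 in the combined contrast (0.15, adjusted p = 0.383), and neither passed the test. In the diabetes contrast it was -0.04, with a 95% interval from -0.37 to 0.29. This interval lies below that of Egln3 (0.97 to 2.45). Bnip3 counts were not whole in 6 of 9 mice, and 504 of its exon bases overlap the antisense gene Gm45507, so its level is uncertain.

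Ankrd37, on chromosome 8 from 45996902 to 46005707, encodes a small ankyrin-repeat protein. It was at 2.99, 4.19 and 4.66 CPM in *db/m*, at 4.08, 5.60 and 8.84 CPM in *db/db* and at 5.11, 3.15 and 2.60 CPM in *db/db*-dapa mice. Values above 5 CPM were found in 2 *db/db* mice and 1 treated mouse, and the groups overlapped. For Ankrd37 the log2 fold change was 0.69 in the diabetes contrast (95% interval -0.19 to 1.56, adjusted p = 0.483), -0.81 in the drug contrast (-1.67 to 0.05, adjusted p = 0.854) and -0.12 in the combined contrast (-1.0 to 0.75). Without *db/db* replicate 3, the first was 0.31 and the second -0.43. Only 12 to 70 counts lay behind each value, and exons of Ufsp2 and Lrp2bp overlap this gene on the other strand, so the intervals are wide and the level is uncertain.

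The other components of the pathway were read from a list of 19 regulators, all of which were tested. None was called in any of the 3 comparisons by edgeR, where 2, 1 and 7 had an unadjusted p under 0.05 in the diabetes contrast, the drug contrast and the combined contrast, against 13.7%, 5.19% and 18.2% of all genes. By DESeq2, 1, 0 and 1 of them were called, against 2.33%, 0.0834% and 3.25% of all genes. The median log2 fold changes were -0.08, 0.04 and -0.05. Among regulators with a mean of at least 1 CPM, Crebbp and Ep300, the genes of the HIF coactivators, had the highest values in the diabetes and combined contrasts, and Arnt2, the gene of a partner subunit, named after its values were seen, lay close to Ep300 at 0.68 and 0.72. Crebbp, which encodes the acetyltransferase CBP, was at 16.4 ± 6.71 CPM in *db/m*, 38.4 ± 11.4 in *db/db* and 37.2 ± 14.0 in treated mice (SD, n = 3), with log2 fold changes over *db/m* of 1.22 (adjusted p = 0.178) and 1.17 (adjusted p = 0.176). It was the 1 regulator called by DESeq2 in each of these. Ep300, which encodes p300, had log2 fold changes of 0.68 and 0.76 in the same comparisons (adjusted p = 0.401 and 0.267). The lowest values in the diabetes contrast were -0.38 for Egln2, the gene of the third prolyl hydroxylase PHD1, and -0.35 for Siah2, the gene of a ubiquitin ligase that degrades prolyl hydroxylases. Tceb2 (elongin B, -0.58) and Rbx1 (-0.54), partners of VHL in its ligase, had the lowest values in the combined contrast. In the drug contrast, Cited2, an inhibitor of HIF that competes for CBP and p300, was the highest at 0.46 (adjusted p = 0.854), followed by Arnt, the partner subunit, at 0.30, and the lowest were Hif3a at -0.61 (near 1 CPM) and Sart1 at -0.35.

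A second list held 66 other HIF target genes. Of these 65 were tested, since Epo, the erythropoietin gene, was at 0 counts in all 9 mice. In the diabetes contrast edgeR called 3 of 65, all higher, Pdk1, Igfbp1 and Zfp395, against 1.24% of all genes, and in the combined contrast it called 2, Igfbp1 and Car12, both higher, against 1.05%. In the drug contrast 0 were called by edgeR, against 0.0% of all genes, and 0 by DESeq2, against 0.0834%. Before adjustment, 10, 5 and 15 targets had p under 0.05 in the diabetes, drug and combined contrasts, against 13.7%, 5.19% and 18.2% of all genes. Groups were fully separated for 12, 7 and 16 of the 65 targets in the same order, against 16.4%, 10.2% and 28.1% of all genes. The median log2 fold changes of the list were 0.06, -0.09 and -0.01 in the diabetes contrast, the drug contrast and the combined contrast, each within 0.1 of the median of all genes.

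**Figure D4:**
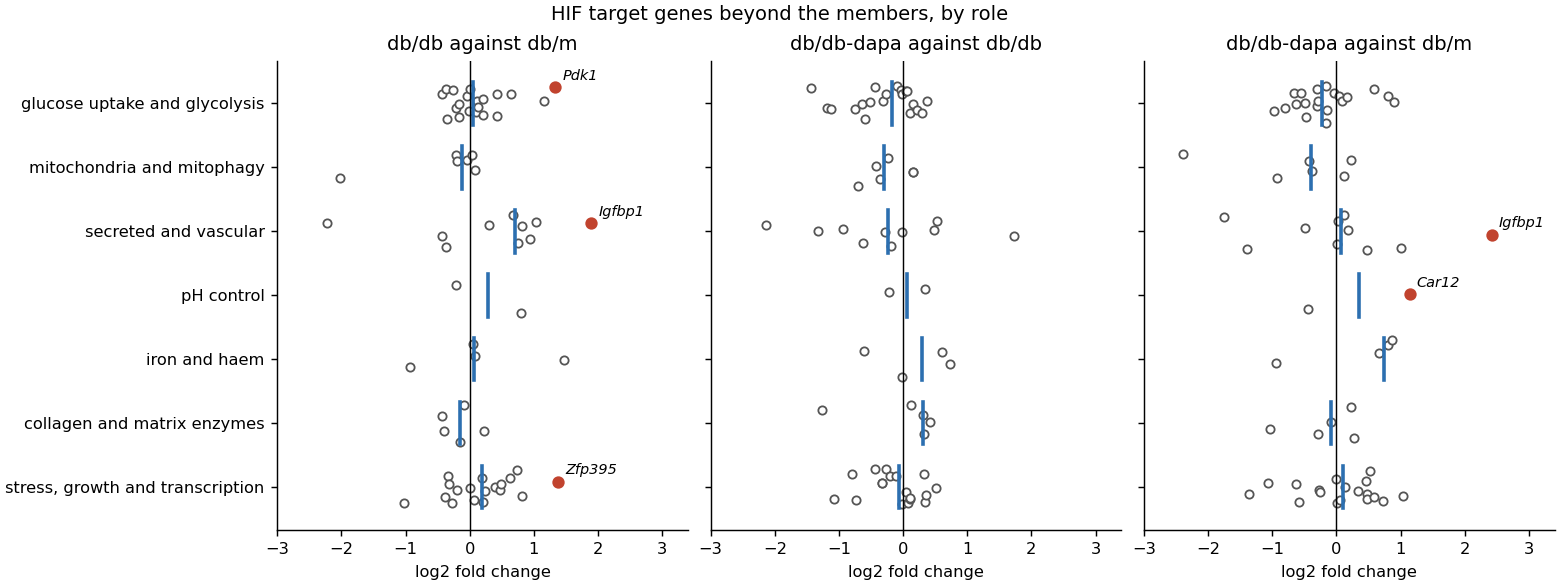
Log2 fold change (x axis) of 65 HIF target genes grouped by role (y axis) in the 3 comparisons; points are genes, filled and named where called, and blue bars are medians. Each role holds genes on both sides of 0, with Pdk1 (1.33), Igfbp1 (1.89) and Zfp395 (1.37) called in the diabetes contrast and Igfbp1 (2.42) and Car12 (1.14) in the combined contrast.

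Among 20 genes of glucose uptake and glycolysis, 1 was called in the diabetes contrast and the median was 0.05. In *db/db*-dapa mice the medians were -0.18 against *db/db* and -0.23 against *db/m*, with 13 and 14 of 20 below 0 and 0 called by edgeR. Pdk1, the called gene, encodes the kinase that inactivates pyruvate dehydrogenase and keeps pyruvate from the mitochondria. It was found at 17.2, 16.2 and 24.6 CPM in *db/m*, at 41.1, 48.4 and 55.1 CPM in *db/db* and at 32.4, 38.7 and 36.0 CPM in *db/db*-dapa mice. The 3 groups did not overlap, and the treated mice lay between the others. Pdk1 rose 2.51-fold in *db/db* over *db/m* mice (log2 1.33, standard error 0.20, adjusted p = 0.0132), and the largest adjusted p over all alternatives was 0.0866. In the combined contrast it had a log2 fold change of 0.89 (adjusted p = 0.0905), below the limit on the fold, and in the drug contrast one of -0.44 (95% interval -0.87 to -0.01, adjusted p = 0.854), so edgeR called it in neither. In the combined contrast it was called without *db/m* replicate 3 (log2 1.09, adjusted p = 0.0885) and by voom weights (log2 1.07, adjusted p = 0.00203).

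Igfbp1 encodes an insulin-like growth factor binding protein whose gene is also known to be repressed by insulin. It was at 4.88, 6.80 and 2.22 CPM in *db/m*, at 7.82, 20.8 and 22.7 CPM in *db/db* and at 26.0, 19.8 and 30.3 CPM in *db/db*-dapa mice. All diabetic mice were above the *db/m* mice, and *db/db* replicate 1 was close to them. Igfbp1 rose 3.71-fold in *db/db* (log2 1.89, adjusted p = 0.0762) and 5.37-fold in *db/db*-dapa over *db/m* mice (log2 2.42, adjusted p = 0.0396). The call in the diabetes contrast was lost without *db/db* replicate 2 (adjusted p = 0.160), *db/db* replicate 3 (0.133), *db/m* replicate 1 (0.258) or *db/m* replicate 3 (0.191), and also with limma at either pseudocount (0.104 and 0.113), with voom weights (0.121) and with only the 6 mice compared (0.171). The call in the combined contrast was lost without *db/db*-dapa replicate 2 (0.123), *db/db*-dapa replicate 3 (0.163), *db/m* replicate 1 (0.172) or *db/m* replicate 3 (0.144).

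Zfp395 encodes a zinc finger transcription factor. It was at 9.13, 6.63 and 5.33 CPM in *db/m*, at 16.0, 13.6 and 24.9 CPM in *db/db* and at 11.5, 14.7 and 17.4 CPM in *db/db*-dapa mice. All diabetic mice were above the *db/m* mice. The rise in *db/db* over *db/m* mice was 2.58-fold (log2 1.37, adjusted p = 0.0719), and the log2 fold change of 1.04 in the combined contrast did not pass in edgeR (adjusted p = 0.154) but was called by DESeq2 (0.0520) and with only the 6 mice compared (0.0669). The call in the diabetes contrast was lost without *db/db* replicate 3 (log2 1.04, adjusted p = 0.160) or without *db/m* replicate 1, 2 or 3 (adjusted p = 0.122, 0.197 and 0.197), and also with voom weights (0.121) or only the 6 mice (0.152).

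Car12, for the membrane carbonic anhydrase XII, was at 266, 278 and 186 CPM in *db/m*, at 377, 332 and 564 CPM in *db/db* and at 416, 546 and 651 CPM in *db/db*-dapa mice. Again all diabetic mice were above all *db/m* mice. It rose 2.21-fold in *db/db*-dapa over *db/m* mice (log2 1.14, adjusted p = 0.0866), and its log2 fold change of 0.80 in the diabetes contrast did not pass (adjusted p = 0.198). The call was kept without *db/db*-dapa replicate 1 and lost without any of the other 5 mice compared (adjusted p from 0.137 to 0.365). Car9, the other gene of pH control, had log2 fold changes of -0.22, -0.22 and -0.44.

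**Figure D5:**
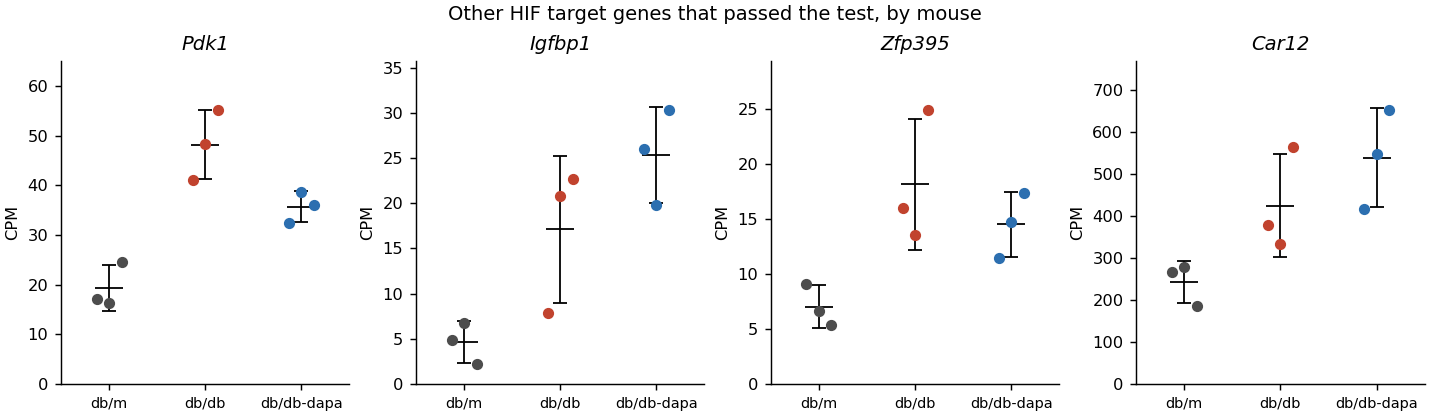
CPM (y axis, from 0) of the 4 other HIF target genes that were called, in the 3 mice of each group (x axis); points are mice, in the order of their replicate numbers, and bars are means ± SD (n = 3). The 4 genes were picked by their calls. All diabetic mice lay above all *db/m* mice for the 4 genes, and Pdk1 was lower in all *db/db*-dapa (32.4 to 38.7 CPM) than in all *db/db* mice (41.1 to 55.1 CPM).

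The remaining targets were not called by edgeR, and those named next had the highest or lowest values among targets with a mean of at least 1 CPM. Of 6 genes of mitochondria and mitophagy, 4 were below 0 in each comparison, with medians of -0.13, -0.30 and -0.41. Of 4 genes of iron and haem, Trf, the transferrin gene, had the highest value in the diabetes contrast (1.47, adjusted p = 0.139, called by DESeq2 at 0.0296) and Cp, the ceruloplasmin gene, one of the lowest (-0.93), together with the growth factor gene Tgfa (-1.03). Hmox1 (0.73) and Tfrc (0.61), which encode haem oxygenase and the transferrin receptor, had the highest values in the drug contrast (adjusted p = 0.854 each). All 3 treated mice were above all *db/db* mice for Tfrc, and the groups overlapped for Hmox1. Igfbp3 (-2.14) and Slc16a3, the gene of a lactate exporter (-1.44), had the lowest values in the drug contrast. Slc16a3 rested on 4 to 31 counts in these mice, and without a mouse its log2 fold change ranged from -1.94 to -0.11. Igfbp3 was at 20.4 ± 14.5 CPM in vehicle and 4.60 ± 5.39 CPM in treated mice (SD, n = 3), so its spread was of the order of its mean. By mouse it was at 29.2, 28.2 and 3.66 CPM in *db/db* and 10.8, 2.1 and 0.905 CPM in *db/db*-dapa mice. Endothelial markers in these mice summed to 254, 309 and 102 and to 321, 85.7 and 68.4 CPM. Whether endothelial RNA had a part in the level of Igfbp3 was not tested. Voom weights called Igfbp3 in the drug contrast (log2 -3.26, adjusted p = 0.0854) and the combined contrast (log2 -2.09, adjusted p = 0.0502). In the combined contrast the lowest were again Igfbp3 (-1.39) and Tgfa (-1.36). Tgfa rested on only 2 to 16 counts per mouse, so its values are uncertain.

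The genes whose levels followed those of a member most closely over the 9 mice were ranked by Pearson's r of log2(CPM + 1), among about 10515 genes with a mean of at least 5 CPM. The r values are the highest of many and serve as a description. Egln3 was most like Zfp462 (0.989), Ndrg1 most like Scly (0.979) and Hif1a most like Ipo9 (0.993). For Vhl the closest was Pdk3 (0.972), for Egln1 Sec61a1 (0.987) and for Epas1 Nde1 (0.956). Adm was closest to Mettl14 (0.946), Bnip3 to Nrbf2 (0.906), Vegfa to Zfp93 (0.903) and Ankrd37 to Zc2hc1c (0.897). None of these closest genes was itself among the 10 or on the lists of regulators and targets.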

How the data were processed

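RNA from sorted cells of 9 mice was analysed by the groups and replicate numbers of the labels. The authors prepared stranded poly(A) libraries and sequenced single-end reads. Their processing notes name TopHat2 2.0.13, Bowtie2 2.2.3, SAMtools 0.1.19, Cufflinks 2.2.1 and mm10. The deposited table is named as FPKM, but its values have the form of estimated counts: 85.9% of those above 0 were whole, and column sums differed between mice. How the authors made them, and whether strand was used, is not given in the sources used here. No column of samples was left out (0 unused).

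Rounded values went into edgeR 4.0.16 (quasi-likelihood test in its earlier form, TMM scaling, R 4.3.3), with all 9 mice in 1 fit and no pairing. Genes at 0.3 CPM or more in at least 2 mice were tested. Standard errors were derived from the test's F value. Calls required a log2 fold change beyond 1 in absolute size and an adjusted p below 0.1. The common biological coefficient of variation was 0.259. limma 3.58.1 and DESeq2 1.42.0 served as alternatives, beside other scalings, filters and leaving out each mouse. Scripts were tested on simulated data. Floors of 3 counts cover counting error only.

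The 10 genes and the lists were chosen with earlier results of these data known. Named were the 10 genes and, from the lists, the called genes. The 2 highest and 2 lowest log2 fold changes per comparison among genes with a mean of at least 1 CPM were also named. Car9, Ier3, Ndufa4l2 and the gene most like each of the 10 are given beside them. Some genes set by the rule for likeness, which takes the closest 3, are not reported here. Gene coordinates and exon lengths were taken from GENCODE on GRCm38, and promoter windows from RefSeq. The replicate numbers were not used to pair the mice in the main fit.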

Additional observations from a re-analysis of the deposited data

How the results depend on the processing

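Of the 10 genes, only Egln3 (1 gene) was called in the combined contrast at an adjusted p under 0.05 with no limit on the fold. For that setting no share of all genes is given, here or below. In the combined contrast the same gene alone was called, at the usual thresholds, with the current form of the quasi-likelihood test and with limma at either pseudocount (0.1 or 1). The current form called 1.24% of all genes there, and limma 0.918% and 0.937% at pseudocounts of 0.1 and 1. Of the targets, 1 was called in the diabetes contrast at an adjusted p under 0.05 with no limit on the fold. At the usual thresholds, 1 was called there with voom weights (1.68% of all genes) and 1 with only the 6 mice compared (0.738%). Voom weights called 2 of 65 in the drug contrast, Igfbp3 and Ier3, against 2.88% of all genes. Their log2 fold changes by edgeR were -2.14 and -0.74. In the combined contrast 4 targets were called with DESeq2 (3.25% of all genes) and 4 with only the 6 mice (4.04%). Both sets were Igfbp1, Car12, Zfp395 and Ier3, and only Ier3 was lower by edgeR (log2 -1.06). There 6 were called with voom weights (10.4%) and 1 at an adjusted p under 0.05 with no limit on the fold. The 6 were Pdk1, Igfbp1 and Car12, higher by edgeR, and Igfbp3 (-1.39), Cp (-0.94) and Ndufa4l2 (-0.92), lower. Ndufa4l2 had a mean of only 1.04 CPM over the 9 mice. Of the regulators, 1 was called by DESeq2 in the diabetes contrast (2.33% of all genes). In the combined contrast 1 was called by DESeq2, voom weights or only the 6 mice, at the shares of all genes given above. With a mouse left out, 0 to 1, 0 to 0 and 0 to 2 of the 10 genes were called in the diabetes, drug and combined contrasts. In the same order, 1 to 3, 0 to 1 and 0 to 2 targets and 0 to 0, 0 to 0 and 0 to 1 regulators were called. Of all genes, 0.545% to 1.48%, 0.0% to 1.75% and 0.0898% to 1.69% were called in these fits.

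The sign changed for the following log2 fold changes. In the diabetes contrast, Adm was 0.067 with a common total per mouse, 0.068 and 0.060 with limma at pseudocounts of 0.1 and 1, and -0.32 to 0.15 without a mouse; Bnip3 was 0.067 with a common total. Vegfa there was -0.0097 and -0.0096 with limma, -0.17 with voom weights and -0.16 to 0.20 without a mouse. Vegfa was 0.019 with voom weights and -0.22 to 0.14 without a mouse in the drug contrast, and 0.017 with a common total and -0.095 to 0.076 without a mouse in the combined contrast. Hif3a in the drug contrast was 0.010 with voom weights. Without a mouse, ranges crossing 0 were -0.44 to 0.082 for Ankrd37 and -0.014 to 0.12 for Egln1 in the combined contrast, and -0.055 to 0.45 for Egln3, -0.020 to 0.23 for Epas1 and -0.97 to 0.057 for Hif3a in the drug contrast. The causes were not tested. A common total moved the median of all genes in the diabetes contrast to 0.125.

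With the replicate number as a block, Adm was 0.032 and Vegfa -0.0091 in the diabetes contrast, 1 target was called there and 1 in the combined contrast (Igfbp1 at adjusted p = 0.134 and Zfp395 at 0.126 were lost in the former, Car12 at 0.119 in the latter), and 1, 0 and 2 of the 10 genes were called. With this block, 1.19%, 0.0% and 1.07% of all genes were called in the diabetes, drug and combined contrasts. Deviations of equally numbered mice correlated from -0.353 to 0.603 over the 3 contrasts. In the drug contrast the values were 0.449, -0.172 and 0.603, and 2 treated mice were most like the *db/db* mouse of their own number. The study's methods name no pairing, and the numbers were not taken as pairs. Low counts limit Ankrd37 and Egln3 most.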
